A study of Mus musculus with 359 samples.

Results

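Liver libraries of female B6C3F1 mice fed 2500 ppm of 4-methylimidazole (4-MEI) for 5 days were compared with those of female B6C3F1 mice on vehicle feed. Each group held 6 libraries of the same day. 4-MEI is a small nitrogen heterocycle that forms when sugars are browned with ammonia. The 12 libraries were chosen by the dose and the letter F in their titles, out of 60 libraries of liver at day 5 and 359 in the whole series, which measured RNA in liver and lung of both sexes over several doses and times. B6C3F1 is a first-generation cross of C57BL/6 and C3H mice that is widely used in toxicity testing. 2500 ppm was the highest of the doses in feed, and 0 ppm (vehicle) the lowest, with 150, 300 and 1250 ppm between them. The labels give no age and do not say whether libraries came from separate animals or cages. The p-values therefore rest on the spread between libraries, which for liver at day 5 was estimated over all 60.

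The liver answers many foreign compounds through the nuclear receptors CAR and PXR, which raise cytochrome P450 enzymes of the Cyp2b, Cyp2c and Cyp3a families that oxidise drugs and steroids. Hepatocytes also make cholesterol, and the factor SREBP2 raises the genes of that pathway together when sterols in the cell run low. Interferons induce a large set of antiviral genes through a complex that holds STAT2 and IRF9, and IRF7 amplifies the response. Kupffer cells are the resident macrophages of the liver sinusoids.

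Libraries are named by the number in their titles, as in LIVER_154. Each of the 12 held 13551105 to 17938019 counts, within the 11070867 to 22527309 of the whole day 5 liver table. Levels are given as CPM, counts scaled by the library total and the TMM factor, and fold changes as log2 of 2500 ppm over vehicle with their standard error (SE). A gene was called when its p-value from edgeR's quasi-likelihood test, adjusted by the Benjamini-Hochberg method over 12836 genes, was under 0.05. Xist, which is transcribed from the inactive X chromosome, lay between 423 and 941 CPM without TMM scaling in the 12 libraries, against at most 0.613 CPM in the 30 male libraries of the table. The tissue label was checked against 7 hepatocyte genes that include Alb and Apoa1, whose sum had a median of 179371 CPM at 2500 ppm and 178431 CPM in vehicle. None of these 7 genes passed an unadjusted p of 0.05, and their median log2 fold change was 0.11. Vehicle library LIVER_091 stood apart in 1 female-biased P450, Cyp3a16, at 491.7 CPM where the next vehicle library held 41.7.

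The number of genes called was 7, with 6 higher at 2500 ppm (0.0467% of the genes tested) and 1 lower (0.00779%). The 6 that rose were 4 P450 genes of drug metabolism, Cyp2c29, Cyp3a11, Cyp2c54 and Cyp2c50, and 2 enzymes of cholesterol synthesis, Msmo1 and Cyp51. The gene that fell was Irf7, the interferon regulatory factor. For each of the 7, all 6 libraries at 2500 ppm lay on the same side of the vehicle mean. The 7 were called on these same libraries, so this is not separate evidence for them. The calls rest on a spread estimated over all 60 libraries. Fitted on the 12 libraries alone, the same test called none of the 7 and no other gene. In that fit 635 genes had an unadjusted p under 0.05, against 271 higher and 383 lower in the fit on 60 libraries. On the 12 libraries Cyp2c29 differed by 0.94 and Irf7 by -0.58 log2, and the adjusted p-values of the 7 ran from 0.111 to 0.25. DESeq2, on the 60 libraries, called 16 genes higher and 8 lower, among them all 7. These are 0.204% and 0.102% of the 7859 genes to which it gave an adjusted p, a smaller set than edgeR tested.

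Across the table, 2.11% of genes were higher and 2.98% lower at an unadjusted p under 0.05. Where no gene differs, a share of about 0.05 is expected to pass that threshold, both directions together. For 0.132% of genes, all 6 libraries at 2500 ppm lay above all 6 vehicle libraries, and for 0.140% all lay below.

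**Figure D1:**
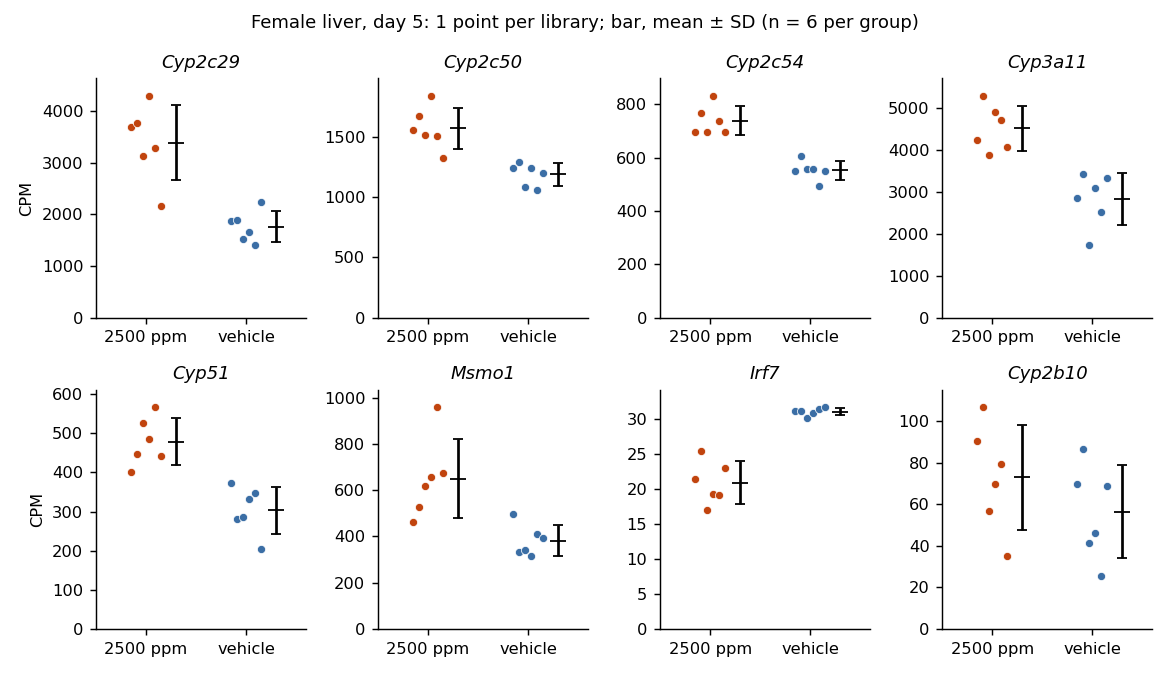
CPM of the 7 called genes and of Cyp2b10 in each library of female liver at day 5, with 2500 ppm on the left and vehicle on the right of each panel; bars give the mean and SD of 6 libraries, and each vertical axis starts at 0. Cyp3a11, Cyp2c50, Cyp2c54 and Cyp51 lie higher at 2500 ppm without overlap, Irf7 lies lower without overlap, and Cyp2c29, Msmo1 and Cyp2b10 overlap.

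Cyp2c29 showed the smallest p-value of all genes. It encodes a P450 of the Cyp2c family (chromosome 19, 39269405 to 39330713 on GRCm38, protein coding). It held 2159 CPM in the lowest, 3486 in the median and 4292 in the highest of the 2500 ppm libraries, against 1400, 1767 and 2248 CPM in the vehicle libraries. The groups overlapped at their edges, the lowest library at 2500 ppm lying below the highest vehicle library. Cyp2c29 rose by 0.94 log2 (SE 0.14, adjusted p 9.39e-05).

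Cyp3a11 encodes the main hepatic P450 of the Cyp3a family and is the standard PXR target of mouse liver (chromosome 5, 145854426 to 145879964). It held 3874, 4481 and 5284 CPM in the lowest, median and highest library at 2500 ppm, against 1740, 2974 and 3436 CPM in vehicle. Every library at 2500 ppm lay above every vehicle library. It rose by 0.67 log2 (SE 0.11, adjusted p 0.00109).

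Cyp2c54 and Cyp2c50 are neighbours in the Cyp2c cluster of chromosome 19 (40037940 to 40073827 and 40089688 to 40113950). Cyp2c54 held 696, 718 and 831 CPM in the lowest, median and highest library at 2500 ppm, against 494, 554 and 607 CPM in vehicle, and rose by 0.42 log2 (SE 0.07, adjusted p 0.00128). Cyp2c50 held 1324, 1539 and 1840 CPM at 2500 ppm, against 1062, 1226 and 1295 CPM in vehicle, and rose by 0.40 log2 (SE 0.07, adjusted p 0.00154). In both genes the groups did not overlap. Of the 50-base stretches of their transcripts, 25.7% in Cyp2c54 and 18.3% in Cyp2c50 also occur in transcripts of other genes, with Cyp2c50 and Cyp2c37 as their closest relatives, so reads could be split among them. The shares were 6.73% in Cyp3a11 and 4.25% in Cyp2c29.

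The promoters of these P450s are shown because CAR and PXR bind pairs of the hexamer AGTTCA. The windows are the 250 bases before the RefSeq start of transcription (GRCm38.p6), in the direction of the gene. Cyp3a11 (chr5:145879855-145880104, minus strand) and Cyp2c50 (chr19:40089429-40089678, plus strand) each hold 1 copy of AGTTCA on the other strand. It reads TGAACT in the printed direction and is set in capitals. The Cyp3a11 span given above, from GENCODE, reaches into its window, so part of that window lies within the span.
Cyp3a11: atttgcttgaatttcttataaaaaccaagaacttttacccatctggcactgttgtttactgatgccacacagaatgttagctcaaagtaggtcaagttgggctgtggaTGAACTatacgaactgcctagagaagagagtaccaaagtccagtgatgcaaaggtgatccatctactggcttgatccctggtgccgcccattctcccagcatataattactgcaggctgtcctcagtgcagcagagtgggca
Cyp2c50: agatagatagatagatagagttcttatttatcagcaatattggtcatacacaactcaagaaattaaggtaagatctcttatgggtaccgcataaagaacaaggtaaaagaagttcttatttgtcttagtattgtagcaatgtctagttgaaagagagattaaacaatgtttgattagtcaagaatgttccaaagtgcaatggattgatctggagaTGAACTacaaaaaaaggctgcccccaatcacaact
AGTTCA on either strand was found in 4 of 32 CAR and PXR targets with a promoter entry (12.5%) and in 11.9% of all 27025 promoters. A repeat of AGTTCA in the same direction after 4 bases was in none of the 32 and in 0.0111% of all. The window before the RefSeq start of Cyp2c29 (chr19:39286835-39287084, plus strand) held no copy. That window lies inside the GENCODE span given above, and the bases before the start of that span were not searched.

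The further CAR and PXR targets were mostly positive in sign without passing the test. Of 34 genes in that list, the 4 P450s above were called, against 0.0467% of all genes called higher. At an unadjusted p under 0.05, 11 were higher and 0 lower, against 2.11% and 2.98% of all genes. The median log2 fold change was 0.23, with 28 of 34 above 0. These counts and the median include the 4 called genes. The summed level of the list was 18674 to 25244 CPM at 2500 ppm and 13719 to 22018 CPM in vehicle, where library LIVER_095 at 22018 CPM stood above the other vehicle libraries, the next at 16198.

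Cyp2b10, the classic CAR target, was not among the genes called. It held 35.04, 74.6 and 106.5 CPM in the lowest, median and highest library at 2500 ppm, against 25.6, 57.6 and 86.7 CPM in vehicle. The groups overlapped over most of their range, and the difference of 0.37 log2 (SE 0.38, unadjusted p 0.336) was about the size of its own error. Cyp2c55, a P450 that both receptors induce, differed by 1.23 log2 (SE 0.32, adjusted p 0.158), with 6.92 to 29.1 CPM at 2500 ppm against 4.34 to 13.6 CPM in vehicle. Cyp3a25 differed by 0.37 log2 (adjusted p 0.158), the carboxylesterase Ces2a by 0.33 (adjusted p 0.2) and the glucuronosyltransferase Ugt2b35 by 0.37 (adjusted p 0.283).

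The transporters Abcc3, which exports conjugates to the blood, and Slco1a4, which takes up organic anions, differed by 0.21 and 0.42 log2 with adjusted p-values of 0.769 and 0.738. Alas1, the first enzyme of haem synthesis, varied more within the groups than between them, at 117.1 to 1593 CPM at 2500 ppm and 88.7 to 1334 CPM in vehicle. The receptors themselves differed little: Nr1i2, which encodes PXR, by -0.05 log2 (SE 0.14) and Nr1i3, which encodes CAR, by 0.07 (SE 0.17). Of 13 receptors and cofactors in that list, 0 passed an unadjusted p of 0.05, with a median of -0.04.

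Genes of the aryl hydrocarbon receptor and of NRF2 were also examined. Cyp1a2, which oxidises aromatic amines, held 1350.0 to 1896 CPM at 2500 ppm and 887 to 1619 CPM in vehicle, a difference of 0.47 log2 (SE 0.12, adjusted p 0.175). Cyp1a1 differed by 0.69 log2 (SE 0.23, adjusted p 0.458) at levels of 2.37 to 6.89 CPM at 2500 ppm against 1.03 to 3.58 CPM in vehicle. Nqo1, a quinone reductase that NRF2 raises, differed by 0.21 log2 (unadjusted p 0.148). Of 14 tested NRF2 targets, 1 was higher at an unadjusted p under 0.05, the sulfiredoxin gene Srxn1 (0.22 log2, adjusted p 0.834), and the median was 0.06.

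All 25 genes of the cholesterol synthesis list were above 0, and 21 were higher at an unadjusted p under 0.05, against 2.11% of all genes. Only Msmo1 and Cyp51 were called. The median log2 fold change was 0.52, against 0.00 over all genes tested. The summed level was 7162 to 9496 CPM at 2500 ppm and 5102 to 6833 CPM in vehicle, without overlap.

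Msmo1 encodes the sterol C4-methyl oxidase (chromosome 8, 64718139 to 64733792). It held 461.3, 638.2 and 958.0 CPM in the lowest, median and highest library at 2500 ppm, against 317.3, 367.9 and 495.8 CPM in vehicle. Only the lowest library at 2500 ppm, library LIVER_154, lay under the highest vehicle library, library LIVER_089. Msmo1 rose by 0.77 log2 (SE 0.13, adjusted p 0.00109).

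Cyp51 encodes the lanosterol demethylase, a P450 that acts on the first cyclic sterols of the pathway (chromosome 5, 4081145 to 4104746). It held 402, 467 and 566 CPM at 2500 ppm, against 204, 308 and 372 CPM in vehicle, and the groups did not overlap. It rose by 0.66 log2 (SE 0.13, adjusted p 0.00578). The transcripts of Cyp51 and Msmo1 share only 0.135% and 0.718% of their 50-base stretches with other genes.

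SREBP2 works at sterol elements beside the CCAAT box bound by NF-Y, and the promoters of both genes are shown for that reason. In the 250 bases before the RefSeq start, Cyp51 (chr5:4104698-4104947, minus strand) holds ATCACCTCA and 1 CCAAT. Msmo1 (chr8:64733579-64733828, minus strand) holds 3 copies of CCAAT and 1 match to TCACNNCAC that shares a base with the middle CCAAT. The GENCODE spans of Cyp51 and Msmo1 given above reach into these windows, so part of each window lies within the span. The capitals mark these matches.
Cyp51: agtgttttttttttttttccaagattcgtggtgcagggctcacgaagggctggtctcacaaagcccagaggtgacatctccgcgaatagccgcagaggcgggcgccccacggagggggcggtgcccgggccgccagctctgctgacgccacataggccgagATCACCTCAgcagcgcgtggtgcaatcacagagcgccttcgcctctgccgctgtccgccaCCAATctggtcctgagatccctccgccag
Msmo1: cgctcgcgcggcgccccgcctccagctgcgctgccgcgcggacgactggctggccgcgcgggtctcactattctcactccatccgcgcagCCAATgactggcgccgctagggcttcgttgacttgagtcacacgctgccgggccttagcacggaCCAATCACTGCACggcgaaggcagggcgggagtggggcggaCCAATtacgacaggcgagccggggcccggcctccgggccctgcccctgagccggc
CCAAT on either strand was found in 15 of the 17 sterol genes with a promoter entry (88.2%), against 34.5% of all 27025 promoters. In the 32 CAR and PXR targets with an entry the share was 46.9%. TCACNNCAC was found in Hmgcs1, Hsd17b7 and Msmo1 (17.6% of the 17), against 3.08% of all. ATCACCTCA, searched after the Cyp51 sequence had been seen, was in Cyp51 alone of the 17 and in 0.17% of all. A match is a run of letters and was not tested for binding.

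Hmgcs1, a synthase of the early steps, differed by 0.77 log2 (SE 0.26, adjusted p 0.467). The mevalonate and isoprenoid enzymes had the same sign. Mvk differed by 0.52 log2 (SE 0.12, adjusted p 0.0794), Pmvk by 0.48, Mvd by 0.76, Idi1 by 0.68 (adjusted p 0.0878) and Fdps by 0.43. Fdft1, which joins the isoprenoids into squalene, differed by 0.53 log2 (adjusted p 0.132). Vehicle library LIVER_089 was the highest vehicle library for Mvk and Fdft1, at 58.99 and 160.6 CPM.

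Sqle, the squalene epoxidase, held 205, 236 and 280 CPM at 2500 ppm against 122.96, 148.3 and 191 CPM in vehicle without overlap, and missed the threshold with a difference of 0.63 log2 (SE 0.15, adjusted p 0.0794). Hsd17b7, a ketoreductase of the same late steps, also did not overlap, at 130 to 166.8 CPM at 2500 ppm against 68.7 to 124.6 CPM in vehicle, with a difference of 0.60 log2 (adjusted p 0.235). Lss, which closes the sterol rings, differed by 0.68 log2 (adjusted p 0.175). Further enzymes of the late steps differed by less: Nsdhl differed by 0.34, Sc5d by 0.30, Dhcr7 by 0.40, Tm7sf2 by 0.14 and Ebp by 0.12 log2.

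Among genes of feedback, Insig1, which holds SREBP in the endoplasmic reticulum, differed by 0.57 log2 (adjusted p 0.247). Srebf2 itself differed by 0.16 log2 (unadjusted p 0.313). Of 15 genes of sterol efflux and of the receptor LXR, 0 passed an unadjusted p of 0.05, with a median of -0.01. Of 17 genes of fatty acid synthesis, Acss2 was higher (0.30 log2) and Mlxipl lower (-0.36 log2) at an unadjusted p under 0.05, with a median of 0.03 that ran from -0.04 to 0.12 without 1 library.

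**Figure D2:**
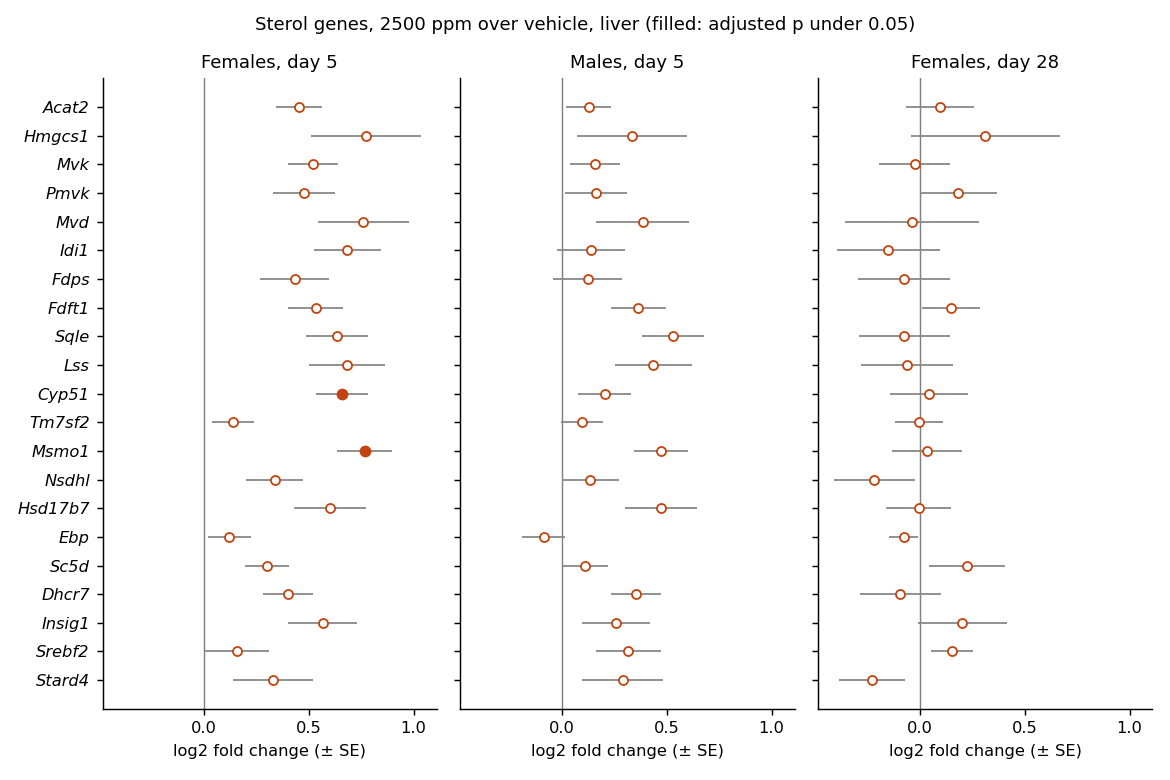
Log2 fold change with its SE of 21 genes of the sterol list, 2500 ppm over vehicle in liver, in pathway order from top to bottom; the panels give females at day 5, males at day 5 and females at day 28, and filled points passed an adjusted p of 0.05. All 21 points lie above 0 in females at day 5 and 20 of 21 in males, while 9 of 21 do so in females at day 28.

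Irf7 was the gene that fell (chromosome 7, 141262706 to 141266481). It held 16.9, 20.3 and 25.4 CPM in the lowest, median and highest library at 2500 ppm, against 30.03, 31.1 and 31.6 CPM in vehicle. The groups did not overlap, and the vehicle libraries lay close together, with an SD of 0.554 CPM against 3.06 CPM at 2500 ppm (n = 6 each). Irf7 fell by 0.57 log2 (SE 0.12, adjusted p 0.0165). The call was lost without LIVER_156, LIVER_157 or LIVER_159 of the 2500 ppm group, where the difference was -0.52, -0.55 and -0.55 log2 with adjusted p-values of 0.125, 0.0655 and 0.0685.

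The interferon-stimulated genes lay lower together in sign, by less than the threshold asks. All 32 were below 0, and 18 were lower at an unadjusted p under 0.05, against 2.98% of all genes. Irf7 was the 1 called, and the median was -0.33 log2. The summed level was 538.8 to 651.5 CPM at 2500 ppm and 655.5 to 757.9 CPM in vehicle, without overlap.

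Dhx58, a helicase that binds viral RNA, differed by -0.42 log2 (adjusted p 0.153) and Ifi44 by -0.61 (adjusted p 0.2). Isg15, the ubiquitin-like modifier, differed by -0.50 log2, Rsad2, which encodes viperin, by -0.69, and Oas1g, of the oligoadenylate synthetases, by -0.82, with adjusted p-values from 0.467 to 0.504. Outside the list, the guanylate-binding protein Gbp10 differed by -0.82 log2 (SE 0.19, adjusted p 0.0794), the interleukin-18 inhibitor Il18bp by -0.38 (adjusted p 0.158) and Ly6e by -0.46 (adjusted p 0.197). Ly6e held 202 to 268.6 CPM at 2500 ppm against 297 to 402.1 CPM in vehicle, without overlap.

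The sensors and receptors upstream differed less. Of 12 tested genes of interferon sensing, 1 was lower at an unadjusted p under 0.05, Tlr7, a receptor for single-stranded RNA (-0.79 log2, adjusted p 0.208), and the median was 0.00. Ifnar1 and Ifnar2, the chains of the receptor for type I interferons, differed by 0.02 and 0.09 log2. Of 15 genes of antigen presentation, 0 passed an unadjusted p of 0.05, with a median of -0.07.

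Kupffer cell markers lay below 0 beside the interferon-stimulated genes. All 12 were lower at an unadjusted p under 0.05, against 2.98% of all genes, 0 were called, and the median was -0.32 log2. Their summed level was 374.1 to 531.9 CPM at 2500 ppm and 506.3 to 617.8 CPM in vehicle, and no marker was at 0 in the 12 libraries. In bulk liver, fewer Kupffer cells and less of these RNAs per Kupffer cell cannot be told apart. The part of Kupffer cells in the interferon result was not tested.

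Clec4f, a lectin found on Kupffer cells, held 76.8, 98.5 and 116.9 CPM in the lowest, median and highest library at 2500 ppm, against 107.5, 122.6 and 134.6 CPM in vehicle. The groups overlapped at 1 library each, 2500 ppm library LIVER_160 and vehicle library LIVER_093, and the difference was -0.34 log2 (SE 0.10, adjusted p 0.227). Folr2, a folate receptor of resident macrophages, differed by -0.56 log2 (SE 0.13, adjusted p 0.0794), the scavenger receptor gene Marco by -0.49 and Adgre1, which encodes F4/80, by -0.38. The complement genes C1qa, C1qb and C1qc differed by -0.29, -0.33 and -0.31 log2.

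Library by library, the interferon-stimulated list kept the groups apart and the Kupffer list did not. The median log2 difference of the interferon-stimulated genes from the vehicle mean ran from -0.50 to -0.15 in the 2500 ppm libraries and from -0.08 to 0.09 in the vehicle libraries. For Kupffer markers the ranges were -0.57 to -0.06 at 2500 ppm and -0.16 to 0.13 in vehicle. By these medians the lowest libraries were the same for both lists, 2500 ppm libraries LIVER_156 and LIVER_157. By summed CPM they were lowest for Kupffer markers (374.1 and 384.9). For the interferon-stimulated genes LIVER_157 (538.8) and LIVER_154 (594.6) were lowest, with LIVER_156 at 597.6 CPM.

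Markers of other cell types are given beside these. Of 11 markers of sinusoidal endothelium, 1 was higher at an unadjusted p under 0.05, Fcgr2b (0.19 log2), with a median of 0.01 and sums of 481.5 to 522.4 CPM at 2500 ppm against 415.8 to 538.3 CPM in vehicle. Of 3 tested monocyte markers 0 passed, with a median of -0.17, and of 11 stellate cell and fibroblast markers 0 passed, with a median of -0.17 and 9 of 11 below 0. Stellate cell and fibroblast markers summed to 403 to 482.0 CPM at 2500 ppm and 460.0 to 557.8 CPM in vehicle. Of 2 tested exocrine pancreas markers, 1 was lower at an unadjusted p under 0.05, the elastase gene Cela1 (-0.54 log2, adjusted p 0.445), and all 6 markers summed to 23.3 to 28.8 CPM at 2500 ppm and 28.6 to 52.5 CPM in vehicle. The part of these cells in the results was not tested. Of 5 markers of plasmacytoid dendritic cells, which make type I interferon, only Spib passed the filter on low counts (0.68 log2, adjusted p 0.958), and the 5 summed to 0.688 to 3.63 CPM at 2500 ppm and 0.447 to 1.31 CPM in vehicle. T and NK cell markers summed to at most 7.50 CPM at 2500 ppm and 7.45 CPM in vehicle.

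**Figure D3:**
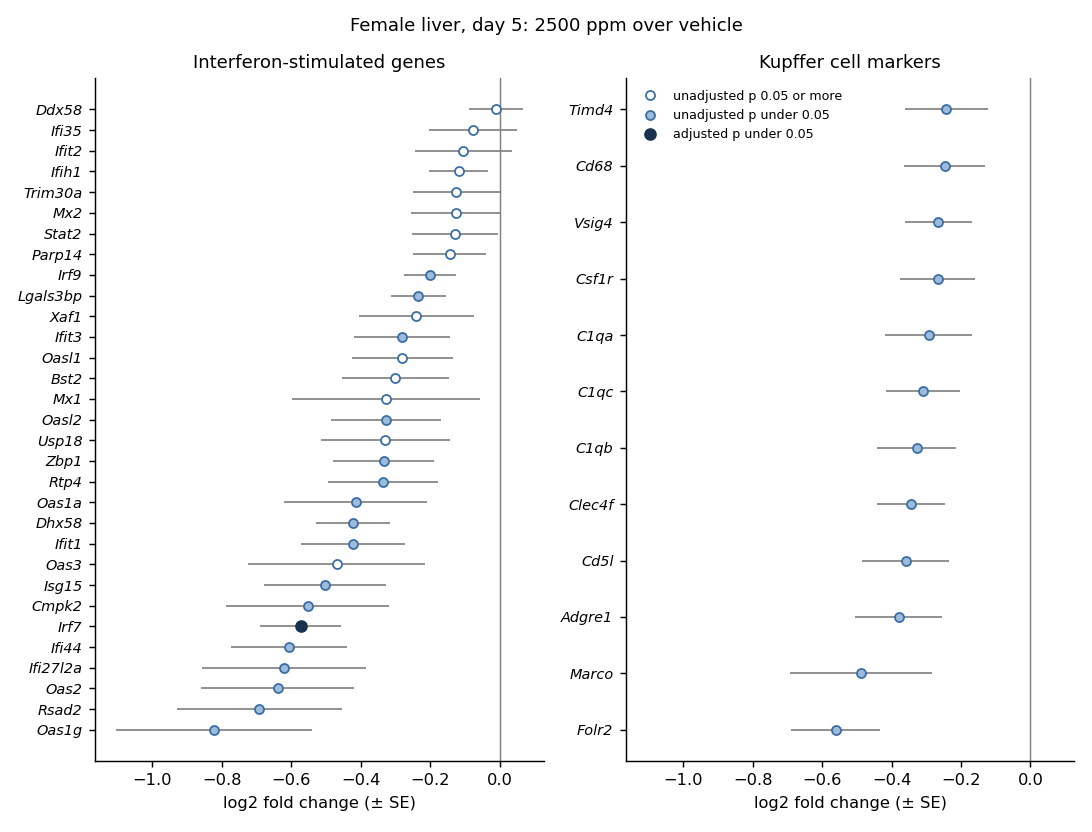
Log2 fold change with its SE of 31 interferon-stimulated genes and the 12 Kupffer cell markers, 2500 ppm over vehicle in female liver at day 5, ordered by size; open points have an unadjusted p of 0.05 or more, pale points an unadjusted p under 0.05, and the dark point an adjusted p under 0.05. All points lie below 0, and Irf7 is the only dark one.

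Other gene groups are read at an unadjusted p under 0.05, since none of their genes was called. Over all genes, 2.11% were higher and 2.98% lower by that measure. PPARA targets (25 genes), p53 targets (10) and the integrated stress response (11) had 0 in either direction, with medians of -0.05, -0.04 and -0.01 log2. All 10 heat shock and chaperone genes were above 0 with 1 higher and a median of 0.14, and of 9 pericentral hepatocyte markers 2 were higher, with a median of 0.10. Of 16 bile acid genes, 1 was higher, the uptake transporter Slco1b2 (0.22 log2, adjusted p 0.432). Among 12 tested immediate early genes, all were above 0 and 4 were higher, Jun, Junb, Btg2 and Zfp36, with a median of 0.70 and summed levels of 295.4 to 449.9 CPM at 2500 ppm against 142.6 to 427.7 CPM in vehicle. Of 19 tested cell cycle genes, 6 were lower, among them Ccna2 (-1.21 log2) and Cdk1 (-0.74 log2), which drive entry into mitosis, with a median of -0.30. Without vehicle library LIVER_093 that median was -0.14. Clock genes summed to 782 to 1222 CPM at 2500 ppm and 597 to 1348 CPM in vehicle. In each group the library with the lowest title number, LIVER_154 and LIVER_089, was lowest. What set the clock levels of these libraries apart was not tested.

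Genes with sex-biased expression in liver were read because growth hormone sets them. Of 18 tested female-biased genes, 4 were lower at an unadjusted p under 0.05, against 2.98% of all genes. They were Cyp3a16, Cyp3a41a, Cyp3a44 and A1bg, and the list had a median of -0.26. That median was -0.44, -0.10 and -0.08 without vehicle library LIVER_090, LIVER_091 or LIVER_095, and -0.15 and -0.52 without LIVER_155 or LIVER_159 of 2500 ppm. Cyp3a16 differed by -3.25 log2 (SE 0.88, adjusted p 0.193), which rests on the vehicle library at 491.7 CPM: the vehicle median was 16.7 CPM and the 2500 ppm median 8.05 CPM. Cyp3a41a shares 98.6% of its 50-base stretches with other genes. Stat5b, which carries the growth hormone signal, differed by -0.35 log2 (adjusted p 0.908) and Stat5a by -0.43 (adjusted p 0.919). Of 17 tested male-biased genes, 1 was higher, Mup20 (0.35 log2).

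Among single genes short of the threshold, Csad, which makes taurine's precursor from cysteine sulfinic acid, held 66.6, 97.6 and 117.4 CPM at 2500 ppm against 40.5, 44.7 and 79.96 CPM in vehicle, a difference of 0.87 log2 (SE 0.21, adjusted p 0.108). Cyp26a1, which degrades retinoic acid, differed by 0.75 log2 (adjusted p 0.158), and Slc39a4, a zinc importer, by -0.41 (adjusted p 0.158).

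The groups of females at lower doses were compared with the same vehicle libraries, so their values are set side by side. At 1250 ppm 4 genes were called, all higher (0.0312% of genes): Cyp2c29, Cyp2c50, Cyp2c54 and Cyp2c55. Cyp2c29 averaged 1765 ± 305 CPM in vehicle, 1706 ± 233 at 150 ppm, 1815 ± 391 at 300 ppm, 3197 ± 592 at 1250 ppm and 3388 ± 727 at 2500 ppm (SD, n = 6 each). The means at the 2 highest doses lay above the others and within 1 SD of each other. These doses were not tested against 150 or 300 ppm. Cyp2c50 and Cyp2c54 likewise differed by 0.40 and 0.41 log2 at 1250 ppm and by 0.40 and 0.42 at 2500 ppm.

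The means of the sterol genes Msmo1 and Cyp51 followed another order over dose, which was not tested against that of the P450s. Msmo1 averaged 382 ± 66.8 CPM in vehicle, 388 ± 36.8 at 150 ppm, 369 ± 54.2 at 300 ppm, 399 ± 47.9 at 1250 ppm and 650 ± 171 at 2500 ppm (SD, n = 6 each). Cyp51 averaged 304 ± 60.2 CPM in vehicle, 312 ± 44.9 at 150 ppm, 305 ± 68.8 at 300 ppm, 320.1 ± 43.2 at 1250 ppm and 479 ± 60.2 at 2500 ppm. It differed by 0.08 log2 at 1250 ppm against 0.66 at 2500 ppm, and the list median was 0.01 at 1250 ppm against 0.52 at 2500 ppm. In both genes the means at 150, 300 and 1250 ppm lay within 1 SD of the vehicle mean.

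Irf7 averaged 30.99 ± 0.554 CPM in vehicle, 35.1 ± 5.38 at 150 ppm, 33.01 ± 6.36 at 300 ppm, 27.8 ± 4.69 at 1250 ppm and 20.8 ± 3.06 at 2500 ppm (SD, n = 6 each). The list median of the interferon-stimulated genes was -0.09 at 1250 ppm and that of the Kupffer markers -0.15. The spread of Irf7 in vehicle was the smallest of the 5 groups.

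A linear trend over the 5 doses, which includes the same 2500 ppm libraries, called 51 genes higher (0.397%) and 56 lower (0.436%). All 7 genes above were among them, with Cyp2c29 at 0.44 log2 per 1000 ppm (adjusted p 1.43e-09) and Irf7 at -0.27 (adjusted p 2.63e-05). Of the sterol genes 16 of 25 were called higher, among them Sc5d at 0.13 and Mvd at 0.31 log2 per 1000 ppm. Of the interferon-stimulated genes 14 of 32 were called lower, including Ifi44 (-0.33) and Zbp1 (-0.24), a sensor of Z-form nucleic acid. Of the CAR and PXR targets 10 of 34 were called higher, and of the Kupffer markers 5 of 12 were called lower, Clec4f, Folr2, Adgre1, Cd5l and Vsig4.

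**Figure D4:**
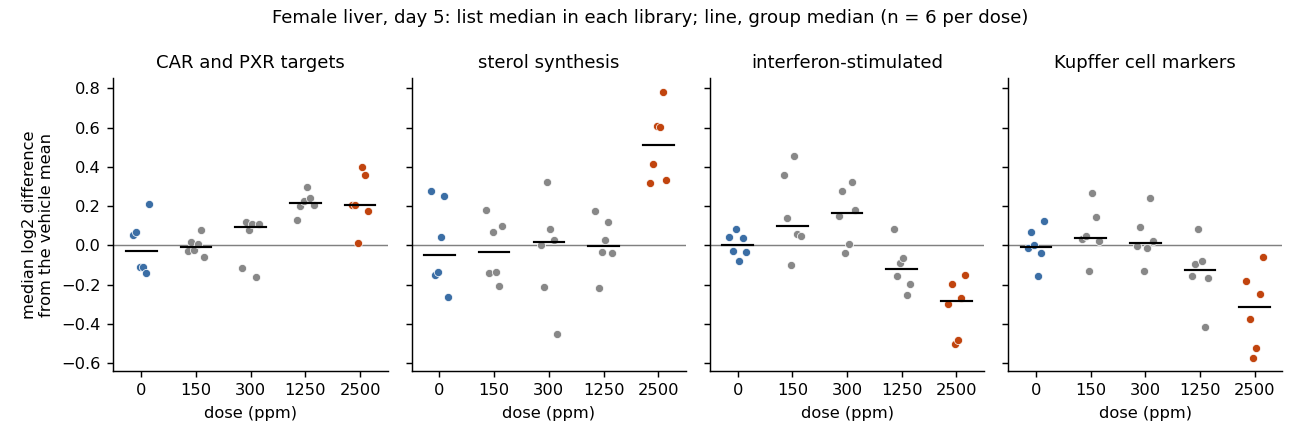
Median over the members of 4 gene lists of the log2 difference from the vehicle mean, 1 point per library of female liver at day 5 by dose in ppm, with the line at the group median (n = 6 per dose). The sterol list stands higher at 2500 ppm (0.32 to 0.78) without overlap with vehicle (-0.26 to 0.28), and the interferon-stimulated list lower (-0.50 to -0.15, against -0.08 to 0.09).

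Males at the same dose and day had 28 genes called higher (0.218%) and 24 lower (0.187%), and 3.89% and 4.92% higher and lower at an unadjusted p under 0.05. Cyp2c29, Cyp3a11, Cyp2c54 and Cyp2c50 rose in males too, by 0.76, 0.85, 0.67 and 0.52 log2. Cyp2b10 averaged 34.9 ± 23.1 CPM in males at 2500 ppm and 5.89 ± 2.95 CPM in vehicle males, and rose by 2.58 log2 (adjusted p 0.000873). In females it averaged 72.99 ± 25.2 CPM at 2500 ppm and 56.5 ± 22.5 CPM in vehicle (SD, n = 6 each). The mean of vehicle females lay above that of males at 2500 ppm, which was not tested, and the difference of the effects, -2.21 log2, had an adjusted p of 0.482.

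Of the sterol genes, 1 was called in males, higher at 2500 ppm. A further 10 were higher at an unadjusted p under 0.05, and the median was 0.32. Msmo1 differed by 0.47 log2 (adjusted p 0.092) and Cyp51 by 0.20 (adjusted p 0.676). Irf7 averaged 19.6 ± 4.00 CPM in males at 2500 ppm and 21.6 ± 2.80 CPM in vehicle males (SD, n = 6 each), a difference of -0.14 log2 (adjusted p 0.80), and the interferon-stimulated list had a median of -0.15. Both male groups lay near the 20.8 CPM of the females at 2500 ppm. No difference between the sexes was called by edgeR (0% of 12836 genes). At an unadjusted p under 0.05, 288 genes were higher and 233 lower, and DESeq2 called 2 genes. None of these effects is therefore shown to differ by sex.

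After 28 days at 2500 ppm, females had 52 genes called higher (0.403%) and 98 lower (0.759%), and 6.74% and 7.15% at an unadjusted p under 0.05. These groups were taken from the titles, since other labels of the day 28 vehicle libraries name another sex and dose. Xist at 786 to 1105 CPM and Y-linked sums of at most 0.349 CPM in the 12 libraries match the titles in sex, while the dose rests on the titles alone. Cyp2c29 averaged 4341 ± 777 CPM at 2500 ppm and 1780 ± 393 CPM in vehicle (SD, n = 6 each) and rose by 1.29 log2 (adjusted p 1.51e-08). Cyp3a11 rose by 0.98, Cyp2b10 by 1.95 (adjusted p 0.00423) and Cyp2c55 by 2.52 log2.

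The sterol list held no such difference at day 28, with 0 called, 0 higher and 1 lower at an unadjusted p under 0.05, and a median of -0.03. Msmo1 averaged 352 ± 59.1 CPM at 2500 ppm and 344 ± 72.6 CPM in vehicle (SD, n = 6 each). The interferon-stimulated genes were again all below 0, with 5 of 32 called lower, Irf7 (-0.80), Usp18 (-0.74), Bst2 (-0.50), Ifih1 (-0.42) and Zbp1 (-0.85 log2), 15 lower at an unadjusted p under 0.05 and a median of -0.32. Of the Kupffer markers 6 of 12 were lower at an unadjusted p under 0.05.

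In a fit joining both days, the effect of 2500 ppm differed between day 28 and day 5 in 4 genes (0.0315%): Rad51b, Fbln5, Pth1r and Urad. None is a sterol, P450 or interferon gene. For Msmo1 and Cyp51 the differences were -0.73 and -0.61 log2 with adjusted p-values of 0.31 and 0.47, so the lower sterol values at day 28 were not shown to differ from day 5.

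In lung of females at the same dose and day, 5 genes were called (0.0319%), led by Nqo1 (0.97 log2), and Msmo1, Cyp51 and Irf7 differed by 0.06, -0.01 and -0.18 log2 with none called. The lung group at 2500 ppm held 5 libraries. In liver of females gavaged with 300 mg/kg-d for 2 days, a different dose and route, 30% of genes were called. There Msmo1 fell by 1.19 log2, Irf7 fell by 0.59 and Cyp2c54 rose by 0.50, while Cyp51 differed by -0.58 (adjusted p 0.117). Msmo1 had opposite signs in feed and gavage, and this difference was not tested.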

How the data were processed

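Per the labels' protocols, libraries of mouse liver RNA were made with a strand-marking TruSeq mRNA kit. Trimmomatic, Bowtie2, SAMtools, HTSeq and the build mm10 are named in the submitters' processing notes. Their versions, the annotation and the strand setting: not given in the sources used here, so reads of a gene and an antisense partner may not be told apart. What the authors deposited are raw counts of reads for 24421 gene symbols, 1 column per library, with no normalization.

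The day 5 liver table of 60 libraries went through filterByExpr and TMM into a model with 1 mean per group in edgeR 4.0.16 (R 4.3.3, limma 3.58.1), tested by robust quasi-likelihood with Benjamini-Hochberg adjustment over all genes. Contrasts for 2500 ppm against vehicle, lower doses, a linear trend over dose, males and the difference between sexes came from this fit. Day 28 liver, day 5 lung and day 2 liver tables were fitted alike, and the difference between days on 24 joined female libraries. The SE is the fold change over the root of the test statistic. DESeq2 1.42.0, RLE size factors, no low-count filter, a spread without robust weights, fewer libraries, the rank of dose, the place of the title number in its block of 8 and each library left out were alternatives. The test was tried on simulated data.

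Genes named were drawn from those called, the next 10 in each direction (some passed over) and those DESeq2 calls. List members called or among the 5 with the smallest p, all sterol genes, and set receptors and reporters were also drawn on. So were the 4 leading genes of each difference or trend test. Not every gene so drawn is named, and those leading the difference between sexes are not. Genes and lists were chosen with earlier results of these data known. Lists are described by counts and medians, beside those of all genes, without a test. Values of a few single list members are not reported here. Tf and Ly6g of the marker lists are not among the symbols used here. No 2 libraries were identical, and the lowest correlation within a group was 0.981 at 2500 ppm and 0.972 in vehicle. The depth of 13551105 to 17938019 counts per library limits the precision of genes with few counts. Promoters (RefSeq) and gene positions (GENCODE M21) are on GRCm38, the build also called mm10. Their start sites differ, and the windows of Cyp3a11, Cyp51, Msmo1 and Cyp2c29 lie partly or wholly within the GENCODE spans.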

Additional observations from a re-analysis of the deposited data

Results flagged for a closer look

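Of 76 groups of 6 values examined, 8 held a library far from the others by Dixon's criterion, which chance alone gives in about 1 of 20 groups. At 2500 ppm, library LIVER_155 held 36.2 CPM of Gpx3, the plasma glutathione peroxidase, where the next library held 4.41. LIVER_160 held 11.8 CPM of Spata5, where the next held 6.60, and LIVER_154 summed to 1385 CPM of NRF2 targets, where the next reached 1089.

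In vehicle, library LIVER_089 was high in 3 genes: Mvk at 58.99 CPM (next 45.4), Fdft1 at 160.6 CPM (next 123.2) and Cyp26a1 at 11.3 CPM (next 7.93). LIVER_091 held 491.7 CPM of Cyp3a16, where the next vehicle library held 41.7. The CAR and PXR targets summed to 22018 CPM in LIVER_095, where the next held 16198. edgeR called none of these genes between 2500 ppm and vehicle, DESeq2 called Mvk, Fdft1, Cyp26a1 and Cyp3a16, and what set these libraries apart was not tested.

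The effect of 2500 ppm differed between day 28 and day 5 in 4 genes by edgeR's test of the difference. Rad51b, of homologous recombination, differed by 2.10 log2 (adjusted p 0.000345), the elastic fibre gene Fbln5 by 1.00 (adjusted p 0.00939), the parathyroid hormone receptor gene Pth1r by 0.77 (adjusted p 0.0204) and Urad, of urate breakdown, by -0.84 (adjusted p 0.0204). A positive value means a higher effect at day 28.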

How the results depend on the processing

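The count of 7 genes for 2500 ppm against vehicle was 7 with RLE size factors, without the low-count filter and without robust weights, and 5 on the 30 female libraries, where Cyp51 and Irf7 were lost. It was 24 by DESeq2, 21 with the place of the title number as a linear term, and 0 on the 12 libraries alone, where 635 genes had an unadjusted p under 0.05. Leaving out 1 library gave 6 to 16 genes: 16 without LIVER_154 of 2500 ppm, and 13, 12 and 11 without LIVER_089, LIVER_094 and LIVER_095 of vehicle. Irf7 was lost without LIVER_156, LIVER_157 or LIVER_159, and the other 6 genes were called in all 12 of these fits. The trend gave 51 genes higher and 56 lower, 71 in all without the filter, 23 with the rank of dose, and 68 higher and 85 lower by DESeq2. Males gave 52 genes and 94 by DESeq2, and the difference between sexes 0 and 2. Day 28 gave 150 genes, 95 without the filter and 239 by DESeq2, and the difference between days 4 and 38. Lung gave 5 genes, 3 without the filter and 10 by DESeq2. The cause of these changes was not tested.

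No gene that was called turned sign. Over the fits without 1 library, 9 uncalled genes did: the log2 fold change ran from -0.24 to 1.24 for Alas1, from -0.115 to 0.0404 for Cyp2c38, from -0.108 to 0.0261 for Cyp2c39, from -0.0438 to 0.0239 for Ddx58, from -0.288 to 0.209 for Gadd45b, from -0.051 to 0.257 for Gstm3, from -0.0567 to 0.0169 for Gstt1, from -0.00795 to 0.299 for Gstt3 and from -0.0236 to 0.125 for Papss2. Papss2 was also -0.0176 with the place of the title number. Of the other values for single genes, 2116 kept their sign and side of the threshold, 57 newly passed it and 12 no longer did. Medians near 0 crossed it without 1 library, from -0.0357 to 0.117 for fatty acid synthesis and from -0.000548 to 0.0517 for bile acid genes, and that of NRF2 targets ran from 0.00973 to 0.11. No paired analysis was possible because the title numbers of both groups, LIVER_154 to LIVER_160 and LIVER_089 to LIVER_095, do not overlap.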
